A study of Mus musculus with 8 samples.

Results

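The 200 most abundant circular RNAs (circRNAs) of the control mouse kidney are described here. Their level was the share of a library's circRNA counts that each one held, in percent. The mean share over 3 control libraries ranked all 6315 listed circRNAs, and the 200 highest were kept, with ties broken by circBase identifier. The values that chose them are therefore the control levels themselves, and any comparison with control is given as a description. Only the obstructed kidneys against the other injured kidneys used no value from the choice.

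A circRNA is a closed RNA loop made when a splice donor joins an upstream acceptor of the same primary transcript. Loops lack free ends and escape the exonucleases that degrade linear mRNA, so they are long-lived, and some accumulate to more than their linear host. One host gene can give several loops that differ in their exons. The kidney tubule, which makes up most of the organ, is rich in mitochondria and burns fatty acids, ketone bodies and branched-chain amino acids to drive transport, and tubule genes of this kind are known to fall after injury.

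The study took total RNA, extracted with Trizol, from kidneys of C57BL/6L mice aged 8 to 10 weeks. The control group had 3 libraries, which the titles call wild type and the design text calls sham-operated. A group called acute-chronic (AC) had 2 libraries and a group with unilateral ureteral obstruction (UUO), in which 1 ureter is closed, had 3, with kidneys taken at day 5; the design text speaks of ischaemia/reperfusion where the labels speak of AC. Beyond that title no genotype is named, nor is a transgene or drug for any group. The labels do not say that libraries came from separate animals, so p-values cover only the spread among the libraries at hand, and this may be technical.

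Total circRNA counts were 43971 to 65145 in control, 40865 to 49147 in AC and 46899 to 57754 in UUO, so the last of the 200 rested on 41 to 59 counts in a control library. In whole kidney, fewer cells of a type and less RNA per cell cannot be told apart. Of 50 kidney cell type markers, 7 hosted a listed circRNA, and none of the podocyte, fibroblast or leukocyte markers did. The proximal tubule markers with a circRNA (Lrp2, Slc4a4) held 0.139% to 0.279% of control counts, 0.110% to 0.134% in AC and 0.0987% to 0.139% in UUO. The circRNA of Dcdc2a, the 1 marker on the injured tubule list that had any, held 0.00614% to 0.0114% in control, 0.197% to 0.208% in AC and 0.267% to 0.296% in UUO. The collecting duct marker Atp6v0a4 held 0.0712% to 0.134% in control, 0.0856% to 0.0916% in AC and 0.0431% to 0.119% in UUO. The endothelial markers Flt1 and Tek held 0.00768% to 0.0114% in control, 0% to 0.0220% in AC and 0.00213% to 0.0173% in UUO. For these the groups overlapped. Proximal tubule and Dcdc2a levels moved with the groups compared below, the former just short of overlap in UUO. The part of marker levels in the results was not tested.

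The 200 circRNAs held 46.5% ± 0.964 (SD, n = 3) of all control counts. The 10 highest held 9.43%, the 20 highest 14.7%, the 50 highest 23.7% and the 100 highest 34.0%. No single loop dominated, since the first held 1.43% and the last 0.0987%, a ratio of 14.5, and the median member held 0.172%. The edge of the choice fell between nearly equal values. Just inside it were Fam53b (0.0988%), Tcf25 (0.0987%) and Atp6v0a4 (0.0987%), and just outside were Cnot2 (0.0979%), Smc3 (0.0976%) and Tmem56 (0.0975%).

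The loop of Gigyf2 (mmu_circ_0000057), a repressor of translation, ranked first in each group. Its counts gave 1.29%, 1.39% and 1.61% of the control libraries, 1.52% and 1.04% in AC, and 1.73%, 1.34% and 1.40% in UUO. The groups overlapped. Rnf169 (mmu_circ_0001605), a ubiquitin reader at DNA breaks, came second, with 1.18%, 1.44% and 1.14% in control. It held 0.865% and 1.12% in AC, both below every control, and 1.22%, 0.973% and 0.970% in UUO. The change did not pass the test in AC (log2 fold change -0.37 ± 0.18 SE, edgeR adjusted p = 0.366) or UUO (-0.26 ± 0.16, adjusted p = 0.474).

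The third, Arhgap10 (mmu_circ_0001692), encodes a GTPase-activating protein and is taken up with its list below. Next came both member loops of Rasa2, which switches off Ras. The first of them (mmu_circ_0001829) held 0.873%, 1.17% and 1.11% of control libraries, and the other (mmu_circ_0001830) 0.669%, 1.01% and 0.832%. Between them in rank stood Rad52 (mmu_circ_0001516), a mediator of homologous recombination, at 0.819%, 1.18% and 0.810%. The circRNAs of Ogdh, Ankib1, Tns3 and Zfp827 completed the first 10, and those of Mettl9, Alg12, Cryl1, Stk39, Erbb2ip, Dtnb, Bckdhb, Tasp1, Arhgap32 and Atxn7 the first 20. Their products range from a citric acid cycle enzyme (Ogdh) and a focal adhesion protein (Tns3) to a mannosyltransferase of N-glycan assembly (Alg12) and a kinase that activates salt cotransporters (Stk39).

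**Figure D1:**
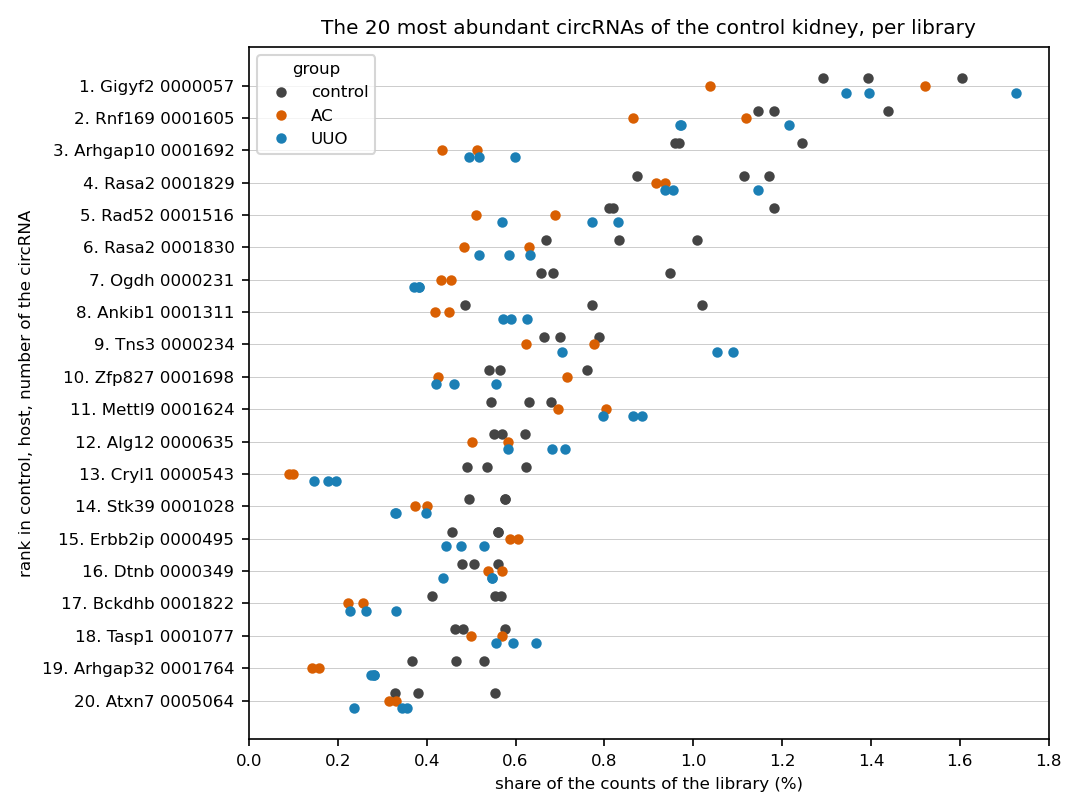
Share of the library's circRNA counts (x axis, percent) for the 20 most abundant circRNAs of the control kidney (y axis, rank, host and circBase number), with 1 point per library and no error bars. Gigyf2 and Rnf169 lead in each group, while the AC and UUO points of Arhgap10, the lower Rasa2 loop, Ogdh, Cryl1, Stk39, Bckdhb and Arhgap32 lie below all 3 control points.

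The 200 loops came from 170 named host genes, with 4 that had no host listed. Several loops from 1 host were the exception: 21 hosts gave 47 of the members, of which Arhgap32 gave 4, Arhgap10, Glis3 and Rere 3 each, and 17 hosts 2 each. Summed over their members, the leading hosts in control were Rasa2 (1.89%), Arhgap10 (1.65%), Gigyf2 (1.43%), Rnf169 (1.26%), Tns3 (1.09%), Arhgap32 (0.988%), Rad52 (0.937%), Glis3 (0.812%), Mettl9 (0.807%) and Zfp827 (0.804%). These 10 hosts held 11.7% of control counts, which was 25.1% of the share of the 200.

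In control, the members held the larger part of the listed circRNA share of most hosts, which a choice of the highest loops favours. The median host had 93.2% of its listed circRNA share there, 93 of 170 hosts had over 90% and 7 under 50%. Of the 170, 33 had no other listed loop, which sets their value at 100%. Rere, a transcriptional corepressor with 21 listed loops, had 63.1% in its 3 members. Listed loops per host had a median of 3 among the hosts of the members, and also among those of the next 200 in rank. The median was 1 among the 2841 hosts of the whole table.

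A further column of the table, marked as evidence, was filled for 131 of the 200 members (65.5%). It was filled for 99 of the circRNAs ranked 201 to 400 (49.5%) and for 1084 of all 6315 (17.2%). In each of these sets it was filled exactly where the source transcript was not an Ensembl one and only for circBase numbers up to 1900. Detection in all 8 libraries held for 1449 of the 6315. It was slightly more common among the circRNAs ranked 201 to 400 than among the members, of which it held for 196. The 4 exceptions were circRNAs of Cpeb3 and Oxct1 (mmu_circ_0005660), each with 0 counts in 1 AC library, Gyk in 1 UUO library and Tbck in 1 control library.

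Within the control group the members' shares varied beyond counting noise. The highest control share was a median of 1.47 times the lowest, 107 members stayed under 1.5 times and 34 reached 2 times or more. The steadiest was Fam160b1 (50, 74 and 62 counts, a ratio of 1.06), and the widest was a loop of Tcf20 (mmu_circ_0000628), a transcriptional regulator, with 103, 11 and 68 counts and a ratio of 13.9. Its second loop (mmu_circ_0000629) had 114, 26 and 69 counts, also lowest in control 2. Tbck had 0, 129 and 85 counts. Acaca, the fatty acid synthesis enzyme acetyl-CoA carboxylase, had 187, 45 and 60, and Atxn2, an RNA-binding protein, 42, 232 and 47. The ranks of Acaca, Atxn2 and Tbck thus rested on 1 or 2 of the control libraries. Of the 35 members that reached 2 times or had a 0, 22 departed most from the control median in control 2, the deepest library.

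In the injured kidneys the same 200 loops held less of the counts. Control libraries ranged from 45.6% to 47.5%. The share was 41.2% ± 0.00424 (SD, n = 2) in AC. In UUO it was 42.9% ± 0.503 (SD, n = 3) with a range of 42.5% to 43.5%, so no injured library reached a control one. The 10 highest fell from 9.43% to 6.98% in AC and 7.80% in UUO, taken as group means. The next 200 in rank held 13.9% in control, 13.1% in AC and 13.2% in UUO. Choosing by control level favours such a fall, as any later measurement of a set picked for high values tends to lie lower (regression to the mean).

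How large that effect was for a choice from 2 controls can be read from the controls themselves. For the members, chosen from 3 controls, it was not measured. The 200 highest were chosen again from 2 controls and looked up in the control left out. Leaving out controls 1, 2 and 3 in turn, the unused control held 44.3%, 46.2% and 45.6% in the 200 so chosen. The highest injured library held 43.1%, 43.2% and 43.4% in the same sets, below the unused control each time. The median log2 ratio of the unused control to the mean of the 2 used was -0.13, -0.06 and -0.06, a fall seen without injury. Against the unused control, which had no part in the choice, the median was -0.13, -0.09 and -0.14 for AC and -0.16, -0.13 and -0.12 for UUO. Measured against all 3 controls that chose the members, the same medians were -0.19 and -0.24.

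**Figure D2:**
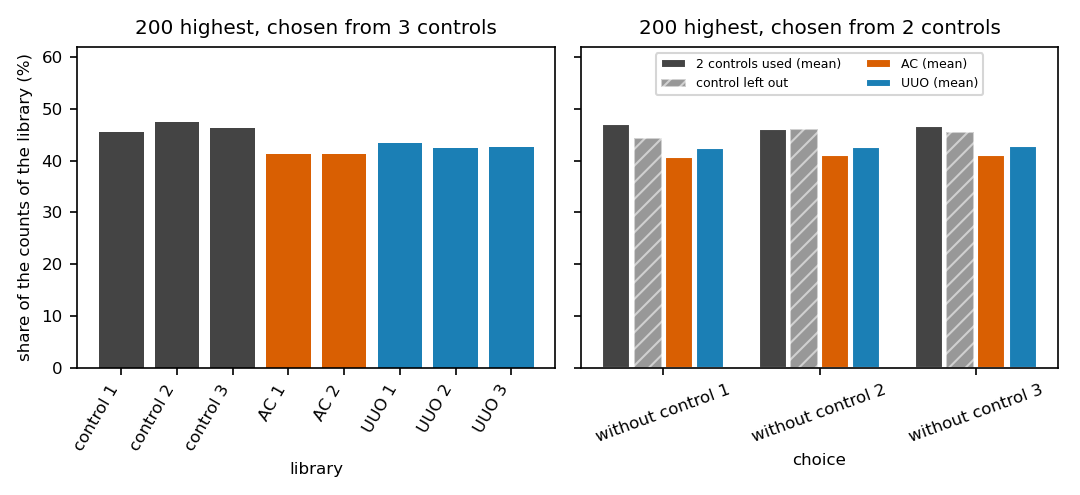
Left, share of each library's circRNA counts held by the 200 loops chosen from 3 controls (y axis, percent, from 0), 1 bar per library. Right, the same for the 200 loops chosen from 2 controls, with the mean of the 2 used, the control left out (hatched), and the means of AC and UUO; the control left out held 44.3% to 46.2%, above both injured groups for each choice.

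The mirror choice went the other way. The 200 highest of the AC libraries had a median log2 ratio of AC to control of 0.15, and the 200 highest of the UUO libraries a median of UUO to control of 0.10. With the 200 highest by the mean of all 3 groups, each weighted equally, the medians were -0.05 for AC and -0.02 for UUO. The median was thus negative for the choice by control and positive for the choices by AC or UUO. For the choice by control, it stayed negative against a control with no part in that choice, as given above. A fall was also seen there without injury. The choices by AC or UUO were not looked up in an unused library, so the directions cannot be compared on that footing.

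**Figure D3:**
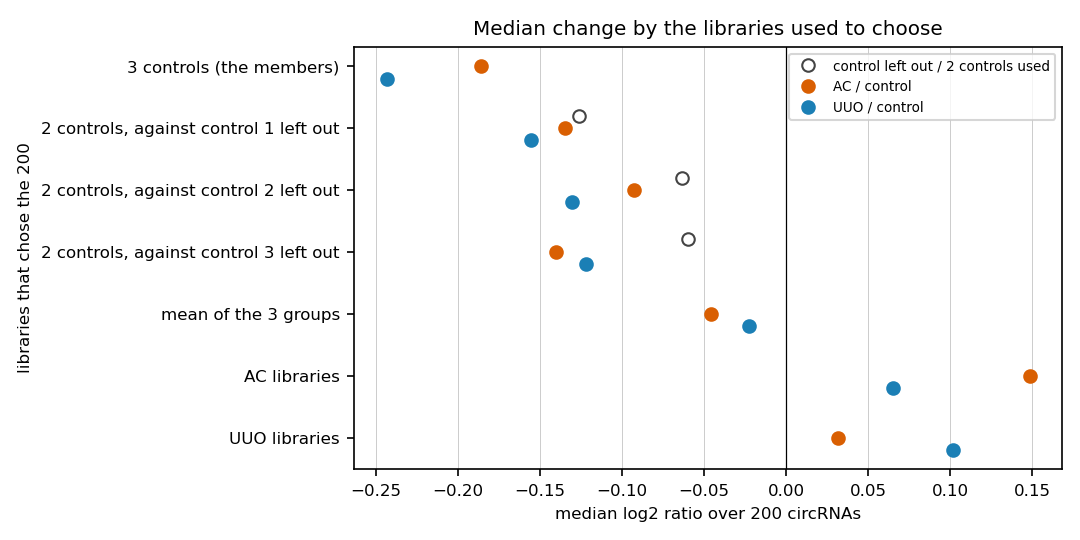
Median log2 ratio of group mean shares over 200 circRNAs (x axis) by the libraries that chose the 200 (y axis); open circles give the control left out over the 2 controls used, filled circles AC and UUO over control. The medians for AC and UUO are negative for choices by control. They are -0.05 and -0.02 for the mean of the 3 groups and 0.03 to 0.15 for choices by AC or UUO.

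Counts were also concentrated in fewer loops in control when each library was ranked by itself. The number of circRNAs that made up 50% of a library's counts was 216 to 241 in control, 264 to 268 in AC and 244 to 252 in UUO, with no overlap between the 3 groups. Each library's own 200 highest held 46.4% to 48.6% in control, 44.1% to 44.6% in AC and 45.6% to 46.2% in UUO. Either measure gave p = 0.1 when UUO and control were compared by an exact permutation test, two-sided, and p = 0.2 for each pair with AC. Each is the smallest p that its design allows, and adjusted over the 3 comparisons each is 0.2, so these differences could not pass 0.05.

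All 200 members passed the filter on low counts and were tested with edgeR's quasi-likelihood test in a fit of all 1471 circRNAs that passed. At a Benjamini-Hochberg adjusted p under 0.05, 9 members were higher and 17 lower in UUO than in control. Over all tested circRNAs 2.86% were called higher and 1.5% lower. In AC against control 8 members were higher and 16 lower, where 1.9% and 1.43% of all tested were called. The median log2 fold change of the members was -0.24 in UUO (130 of 200 negative) and -0.22 in AC (133 negative), against 0.02 and -0.02 over all tested. The members' errors were smaller, with a median SE of 0.27 in UUO among members and 0.57 among all tested. The libraries did not overlap for 32 members above and 49 below control in UUO, with 12.8% and 11.2% of all tested doing so, and for 23 above and 62 below in AC, with 16.3% and 14.7%. Nothing is read from these counts, since the control values chose the members.

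CircRNAs ranked 201 to 400 had nearly the same medians, -0.22 in UUO and -0.28 in AC, with 8 higher and 3 lower in UUO and 4 and 4 in AC. Of the 20 highest members, 5 were lower in UUO and 5 in AC, and none higher.

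**Figure D4:**
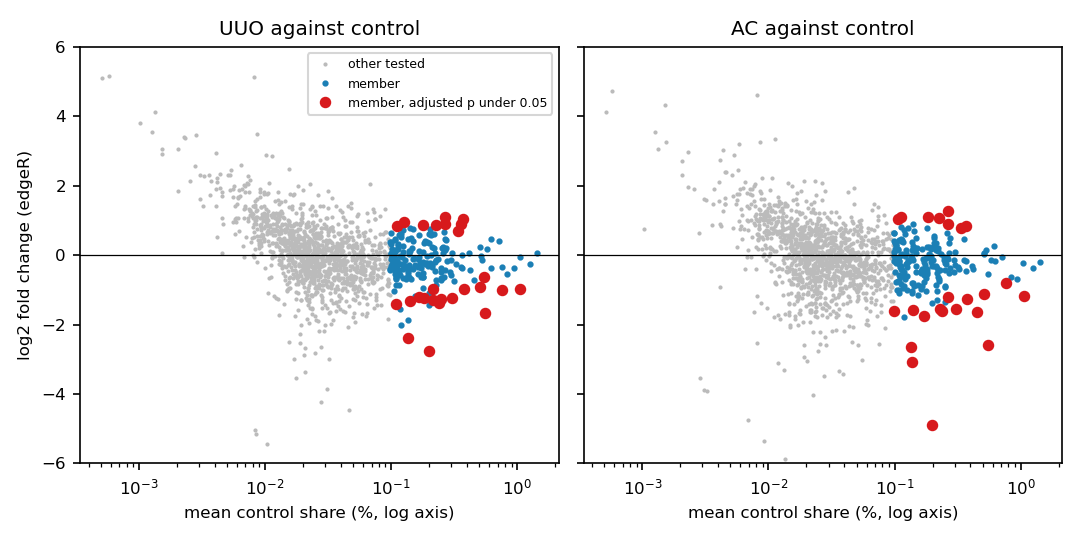
Log2 fold change from edgeR (y axis) against the mean control share (x axis, percent, log scale) for the tested circRNAs, UUO left and AC right; members in blue, members past an adjusted p of 0.05 in red, other tested circRNAs in grey. Not drawn are 6 circRNAs with 0 control counts and those beyond a log2 fold change of 6 in either direction (9 in UUO, 14 in AC). Calls among members lie on both sides of 0, and the farthest below 0 is Cpeb3.

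The calls depended on the scale and on single libraries. With the constant by which the authors divided each library as library size, no member was called higher, against 18 lower in UUO and 16 in AC, and every rise kept its sign. That scale moved the median of all tested circRNAs to -0.28 in UUO and -0.38 in AC, and of the members to -0.49 and -0.55. Nothing is read from the gap, since the control values chose the members. Scaling factors computed without the 200 members gave 7 higher and 21 lower in UUO and 5 and 17 in AC. The number of members called in UUO, newly called ones included, dropped from 26 to 11 without control 3. It was 11 without UUO 1, 4 without UUO 2 and 6 without UUO 3. The 24 in AC dropped to 6 without control 3, 3 without AC 1 and 7 without AC 2. With AC 1 or AC 2 left out, the lone AC library is assumed to vary like the other groups. Called at every setting with 1 library left out were Cryl1, Cpeb3 and Tns3 (mmu_circ_0000233) in UUO, and Cryl1, Cpeb3 and Arhgap32 (mmu_circ_0001764) in AC.

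Hosts were grouped into 10 lists by the known role of their product, which placed 99 members on at least 1 list and 101 on none. The lists name chosen symbols and are not complete, so a count covers the list and not every host of that kind. The RNA-binding protein Atxn2, the zinc finger protein Bnc2 and the nuclear receptor Thrb, for example, are on none. Nor is the Polycomb protein Eed (0.213% in control, 0.174% in AC, 0.166% in UUO). Rgnef was missed because the GTPase list names it Arhgef28. It held 0.273% in control, 0.386% in AC and 0.313% in UUO, with overlapping libraries. The Rabgef1 loops, also on none, had negative fold changes in UUO and AC. As throughout, the control values compared are those that chose the members, of which 130 of 200 were negative in UUO and 133 in AC, and nothing is read from a list's count of calls or signs. Over all tested circRNAs 2.86% were called higher and 1.5% lower in UUO, and 1.9% and 1.43% in AC. All adjusted p-values below are edgeR's over the 1471 tested circRNAs, and log2 fold changes are given ± SE. Where leaving out 1 library ended a call, the highest adjusted p over the 8 such settings is given in most cases.

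The 9 members from 7 hosts of metabolism and mitochondria held 2.97% of control counts and 1.40% in AC and 1.43% in UUO. All 9 had negative fold changes in both, with medians of -1.10 in AC and -1.01 in UUO, and 5 passed the test in each. Cryl1 (mmu_circ_0000543), a gulonate dehydrogenase of the kidney and liver, had 216, 349 and 359 counts in control, 44 and 40 in AC and 92, 74 and 102 in UUO. Its share went from 0.491%, 0.536% and 0.624% to 0.0895% and 0.0979% in AC and to 0.196%, 0.145% and 0.177% in UUO. It was rank 13 in control, 205 in AC and 88 in UUO, and all 3 groups were apart. The log2 fold change was -2.58 ± 0.26 in AC (adjusted p = 1.48e-05) and -1.67 ± 0.21 in UUO (adjusted p = 0.00015).

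Ogdh (mmu_circ_0000231), the first enzyme of the 2-oxoglutarate dehydrogenase complex, held 0.685%, 0.949% and 0.657% in control. It fell to 0.431% and 0.455% in AC (-0.82 ± 0.21, adjusted p = 0.0415) and to 0.371%, 0.382% and 0.383% in UUO (-1.01 ± 0.18, adjusted p = 0.00707). Every injured library lay below every control. The UUO call was lost without UUO 2 (adjusted p = 0.0613), and the AC call was kept without control 1 alone, with an adjusted p of up to 0.24 otherwise.

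Both member loops of Bckdhb, a subunit of the branched-chain keto acid dehydrogenase, lay below control. The main one (mmu_circ_0001822) held 0.412%, 0.553% and 0.566% in control, 0.256% and 0.223% in AC (-1.12 ± 0.24, adjusted p = 0.0194) and 0.330%, 0.228% and 0.263% in UUO (-0.90 ± 0.21, adjusted p = 0.0245). The minor one (mmu_circ_0015952) had 43, 87 and 55 counts in control, 28 and 19 in AC, and 26, 17 and 20 in UUO, and passed in UUO alone (-1.42 ± 0.34, adjusted p = 0.0277; AC -1.10 ± 0.38, adjusted p = 0.169). None of these 3 calls held without control 3, nor the AC call without either AC library or the UUO calls without UUO 2 or UUO 3, and their adjusted p reached 0.126 in UUO and 0.139 in AC with 1 library left out.

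Oxct1, which activates ketone bodies for oxidation, also gave 2 members. The first (mmu_circ_0000571) had 112, 125 and 156 counts in control, 40 and 31 in AC (-1.62 ± 0.37, adjusted p = 0.022) and 55, 23 and 65 in UUO (-1.37 ± 0.32, adjusted p = 0.0245). The other (mmu_circ_0005660) had 55, 74 and 99 in control, 0 and 14 in AC (-3.08 ± 0.72, adjusted p = 0.0228) and 23, 23 and 11 in UUO (-1.87 ± 0.54, adjusted p = 0.0619). The AC value of the latter turned on the library at 0: without AC 1 the log2 fold change was -2.04, and DESeq2 gave an adjusted p of 0.0845. Both AC calls and the UUO call were lost without control 3 and without AC 1 or UUO 2, respectively (adjusted p up to 0.131). Pank1, Gbe1 and Hibadh, enzymes of coenzyme A, glycogen and valine metabolism, had fold changes between -0.94 and -0.44 that did not pass.

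The 5 members hosted by genes of tubule transport held 1.08% in control, 0.724% in AC and 0.611% in UUO. All 5 were negative in both, with medians of -0.53 in AC and -0.64 in UUO, and 3 passed in UUO and 1 in AC. Klhl3 (mmu_circ_0004688), a ubiquitin ligase adaptor of the distal tubule that restrains salt uptake, had 54, 109 and 66 counts in control, 2 and 17 in AC, and 10, 18 and 12 in UUO. No injured library came near a control one, with a log2 fold change of -2.64 ± 0.59 in AC (adjusted p = 0.022) and -2.38 ± 0.49 in UUO (adjusted p = 0.0132). The AC call was lost without control 3 or AC 1, where the fold change was -1.75, and the UUO call without any 1 of the UUO libraries (adjusted p up to 0.0768). Klhl3 is also a marker on the distal tubule list, whose listed loops held 0.167% to 0.220% in control, 0.0305% to 0.0587% in AC and 0.0299% to 0.0569% in UUO.

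Slc7a8 (mmu_circ_0000539), an exporter of neutral amino acids at the basolateral membrane, had 69, 97 and 110 counts in control, 43 and 39 in AC, and 31, 32 and 50 in UUO. It passed in UUO (-1.20 ± 0.27, adjusted p = 0.0245), though not without control 3 or any UUO library (adjusted p up to 0.112), and not in AC (-0.88 ± 0.31, adjusted p = 0.175). Stk39 (mmu_circ_0001028) held 0.496%, 0.576% and 0.577% in control, 0.374% and 0.401% in AC and 0.330%, 0.398% and 0.329% in UUO. Its UUO value of -0.64 ± 0.18 lay at the threshold (adjusted p = 0.0499), was kept in 1 of 8 settings with a library left out (adjusted p up to 0.182), and in AC was -0.53 ± 0.20 (adjusted p = 0.215). Atp6v0a4, a proton pump subunit of intercalated cells, did not pass in either (-0.40 ± 0.37 in UUO, -0.17 ± 0.41 in AC).

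Regulators of small GTPases formed the most abundant list, with 16 members from 8 hosts at 5.64% of control counts, 3.73% in AC and 4.20% in UUO. In UUO 3 were lower and 1 higher, with a median of -0.58 and 14 negative. In AC 6 were lower and none higher, with a median of -0.77 and 13 negative. The 3 member loops of Arhgap10 moved alike in UUO, each at -0.97. The main loop (mmu_circ_0001692) held 0.960%, 0.967% and 1.25% in control, 0.433% and 0.514% in AC (-1.18 ± 0.19, adjusted p = 0.00304) and 0.599%, 0.496% and 0.518% in UUO (-0.97 ± 0.17, adjusted p = 0.00459). It went from rank 3 to 19 in AC and 15 in UUO, and lost the call only without AC 1 (0.0674) and UUO 2 (0.0613) respectively. The second (mmu_circ_0001691) had 155, 186 and 283 counts in control, 67 and 74 in AC (-1.27 ± 0.28, adjusted p = 0.022) and 97, 107 and 91 in UUO (adjusted p = 0.0298). The third (mmu_circ_0014982) had 115, 122 and 115 in control, 41 and 53 in AC (-1.04 ± 0.30, adjusted p = 0.0846) and 59, 54 and 57 in UUO (adjusted p = 0.0451). The second lost its UUO call without control 3 or any UUO library (adjusted p up to 0.155). Its AC call was lost without control 3 or either AC library. The third lost its UUO call without control 1, control 3 or any UUO library (adjusted p up to 0.182).

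Arhgap32, another GTPase-activating protein, had 4 member loops, all lower in AC. The leading one (mmu_circ_0001764) held 0.366%, 0.530% and 0.466% in control, 0.157% and 0.142% in AC (-1.63 ± 0.24, adjusted p = 0.00121) and 0.275%, 0.280% and 0.282% in UUO (-0.70 ± 0.20, adjusted p = 0.0561). The groups were apart in the order control, UUO, AC. The next (mmu_circ_0001765) had -1.21 ± 0.25 in AC (adjusted p = 0.0182), mmu_circ_0015520 had -1.75 ± 0.41 (adjusted p = 0.0228) and mmu_circ_0001763 had -1.61 ± 0.43 (adjusted p = 0.0466). The calls of mmu_circ_0001765 and mmu_circ_0015520 were lost without control 3 or either AC library (adjusted p up to 0.106 and 0.174). That of mmu_circ_0001763 was kept in 1 of 8 settings, without AC 2, and its adjusted p reached 0.399. In UUO their values were -0.63, -1.18 and -0.11, and none of the 4 passed. The Rasa2 members did not pass in either comparison, at -0.06 ± 0.15 and -0.54 ± 0.18 in UUO and -0.21 ± 0.17 and -0.62 ± 0.21 in AC. Arhgap26 (mmu_circ_0000865) was the 1 rise, from 93, 115 and 88 counts to 133, 192 and 188 in UUO (0.87 ± 0.22, adjusted p = 0.035) with 132 and 148 in AC (0.78 ± 0.24, adjusted p = 0.114). It lost the call without control 2, control 3 or any UUO library (adjusted p up to 0.159).

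Adhesion and actin hosts had 4 members, which held 1.47% in control, 2.12% in AC and 2.40% in UUO. Of the 4, 2 were higher in each comparison and none lower. Tensin 3 (Tns3), which links integrins to actin, had its minor loop (mmu_circ_0000233) at 0.371%, 0.422% and 0.311% in control, 0.631% and 0.719% in AC (0.85 ± 0.19, adjusted p = 0.022) and 0.680%, 0.773% and 0.817% in UUO (1.04 ± 0.18, adjusted p = 0.00459). It rose from rank 23 to 6 in both. The UUO call held in 8 of 8 settings, while the AC call was lost without control 1, control 3, UUO 3 or either AC library (adjusted p up to 0.239). Its main loop (mmu_circ_0000234) did not pass (0.40 ± 0.18 in UUO, -0.06 ± 0.21 in AC).

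Cd2ap (mmu_circ_0006764), an adaptor of the actin skeleton known from the podocyte, had 81, 232 and 149 counts in control, 309 and 288 in AC, and 328, 231 and 330 in UUO. As shares the groups did not overlap, with 0.184% to 0.356% in control, 0.629% and 0.705% in AC and 0.453% to 0.699% in UUO. The log2 fold change was 1.28 ± 0.26 in AC (adjusted p = 0.0144) and 1.09 ± 0.24 in UUO (adjusted p = 0.0178). Both were lost without control 3, the AC call also without either AC library, and the UUO call also without UUO 1 or UUO 3 (adjusted p up to 0.0959). Myo5b, a motor of apical vesicle transport, did not pass (-0.05 ± 0.34 in UUO, -0.67 ± 0.40 in AC).

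The list of transcription factors and zinc finger proteins was the longest, with 21 members from 14 genes. Their summed share hardly differed, at 4.85% in control, 4.73% in AC and 4.94% in UUO, and single members went both ways. Nfix (mmu_circ_0001704), a nuclear factor I protein, had 185, 209 and 187 counts in control, 258 and 189 in AC (0.45 ± 0.22, adjusted p = 0.354) and 255, 423 and 341 in UUO (0.89 ± 0.19, adjusted p = 0.0178). Its UUO call was lost without control 3, UUO 2 or UUO 3 (adjusted p up to 0.112). One loop of Glis3 (mmu_circ_0000943), a Krüppel-like factor whose loss gives cystic kidneys, had 107, 119 and 147 counts in control, 247 and 192 in AC (1.08 ± 0.21, adjusted p = 0.0114) and 216, 194 and 232 in UUO (0.87 ± 0.19, adjusted p = 0.0178). Those calls failed without any library of the injured group (adjusted p up to 0.103 in AC and 0.0768 in UUO). In the other direction, the minor loop of Zfp827 (mmu_circ_0001697) had 59, 151 and 103 counts in control and 33, 31 and 58 in UUO (-1.23 ± 0.30, adjusted p = 0.0278), and lost the call without control 2, control 3 or any UUO library (adjusted p up to 0.135). Rere, with 3 member loops, had none that passed, between -0.62 and -0.19 in UUO and between -1.03 and 0.23 in AC.

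Chromatin hosts gave 13 members from 12 genes, at 2.29% in control, 2.75% in AC and 2.70% in UUO. The 1 that passed was Whsc1 (mmu_circ_0001335), a histone methyltransferase, with 61, 74 and 75 counts in control, 125 and 77 in AC (0.77 ± 0.25, adjusted p = 0.142) and 100, 133 and 154 in UUO (0.96 ± 0.23, adjusted p = 0.0272). Without control 2, control 3, UUO 2 or UUO 3 it did not pass (adjusted p up to 0.147). The protease Tasp1, which cleaves MLL, had the highest chromatin loop (mmu_circ_0001077), at 0.24 ± 0.17 in UUO and 0.05 ± 0.19 in AC. Ezh2 (mmu_circ_0001471), the catalytic subunit of Polycomb, was at 0.67 ± 0.23 in UUO (adjusted p = 0.13) and 0.63 ± 0.26 in AC (adjusted p = 0.272), neither past the threshold.

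Ubiquitin ligases and deubiquitinases hosted 8 members, which held 3.19% in control, 2.69% in AC and 3.002% in UUO, and none passed in either comparison. Besides Rnf169, the list was led by the ligase Ankib1 (mmu_circ_0001311), which held 1.02%, 0.487% and 0.771% in control, 0.419% and 0.450% in AC (-0.82 ± 0.24, adjusted p = 0.0846) and 0.591%, 0.626% and 0.571% in UUO (-0.34 ± 0.21, adjusted p = 0.465). Among 10 kinase loops, Stk39 was the 1 that passed, in UUO. Hipk3 (mmu_circ_0001052), host of a much studied circRNA, was at 0.07 ± 0.28 in UUO and -0.27 ± 0.32 in AC, and Tlk1 at -0.13 ± 0.21 and -0.14 ± 0.24.

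The list of RNA-binding hosts had 7 members at 1.55% in control, 1.27% in AC and 1.54% in UUO, and 1 of them had the lowest fold change of the 200 in both comparisons. Cpeb3 (mmu_circ_0007737), which binds polyadenylation elements of mRNAs, had 95, 108 and 124 counts in control. It had 6 and 0 in AC (-4.90 ± 0.64, adjusted p = 0.00039) and 21, 8 and 16 in UUO (-2.75 ± 0.43, adjusted p = 0.0023). It moved from rank 81 to 2574 in AC and 693 in UUO. The AC fold change was -4.07 without AC 2, the library at 0. Without AC 1, which leaves that library alone, the fitted value was -9.71 and depends on the prior count. Pan3 (-0.45 ± 0.24 in UUO, -0.68 ± 0.28 in AC) and Stau2 (0.22 ± 0.24 and -0.37 ± 0.28) did not pass. In the list of vesicle traffic (8 members; 1.37% in control, 1.06% in AC, 1.09% in UUO), Snx29 (mmu_circ_0006062), a sorting nexin, fell from 150, 164 and 185 counts to 49 and 46 in AC (-1.54 ± 0.30, adjusted p = 0.0114) and 72, 74 and 50 in UUO (-1.25 ± 0.25, adjusted p = 0.0132). The AC call failed without either AC library (0.0988) and the UUO call without UUO 2 or UUO 3 (0.0768).

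Outside the lists, Tdrd3 (mmu_circ_0000561), a Tudor domain protein, was lower in both comparisons (-1.58 ± 0.39 in AC, adjusted p = 0.0327; -1.32 ± 0.33 in UUO, adjusted p = 0.0311). The thyroid hormone receptor Thrb (mmu_circ_0000504; -1.28 ± 0.34, adjusted p = 0.0426) and the zinc finger protein Bnc2 (mmu_circ_0001225; -1.29 ± 0.34, adjusted p = 0.0426) were lower in UUO, with AC values of -1.36 (adjusted p = 0.0846) and -1.29 (adjusted p = 0.113). The mismatch repair gene Pms1 (mmu_circ_0000038) was lower in AC (-1.56 ± 0.32, adjusted p = 0.0179), with -0.73 in UUO (adjusted p = 0.157). None of these held in every setting with 1 library left out. The adjusted p reached 0.155 for Tdrd3, 0.19 for Thrb and 0.188 for Bnc2 in UUO, and 0.213 for Tdrd3 and 0.0988 for Pms1 in AC. Tdrd3 in both comparisons, Thrb and Pms1 were lost without control 3, and Bnc2 without control 1 or control 2.

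Other members were higher. The small GTPase Rras2 (mmu_circ_0001614) had 161, 207 and 188 counts in control, 239 and 282 in AC (0.78 ± 0.20, adjusted p = 0.0423) and 238, 305 and 311 in UUO (0.71 ± 0.18, adjusted p = 0.0397). Fam160b1 (mmu_circ_0000964) had 50, 74 and 62 in control, 116 and 105 in AC (1.11 ± 0.25, adjusted p = 0.022) and 81, 106 and 127 in UUO (0.84 ± 0.23, adjusted p = 0.0451). A loop with no listed host (mmu_circ_0000903) rose by 0.90 in both (adjusted p = 0.0415 in AC, 0.0263 in UUO). Passing in AC alone were the LIM domain protein Trip6 (mmu_circ_0012217; 1.11 ± 0.26, adjusted p = 0.0228; UUO 0.40 ± 0.24) and the MAP kinase phosphatase Dusp16 (mmu_circ_0013121; 1.03 ± 0.27, adjusted p = 0.0439; UUO 0.47 ± 0.25). Rras2, Dusp16 and mmu_circ_0000903 in AC and Fam160b1 in UUO lost their calls whichever library was left out, with an adjusted p of up to 0.517, 0.364, 0.486 and 0.209. In UUO the call of Rras2 was kept in 1 of 8 settings (adjusted p up to 0.155) and that of mmu_circ_0000903 in 3 of 8 (up to 0.0978). Fam160b1 in AC was lost without control 3 or either AC library (up to 0.176). The call of Trip6 was lost without control 1, control 3 or either AC library (adjusted p up to 0.298).

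UUO against AC was the comparison that the choice did not touch. No member passed (0.0% of all tested did), and the smallest adjusted p of a member was 0.469. At an unadjusted p under 0.05 there were 18 of 200 members, beside 82 of 1471 tested circRNAs, and DESeq2 called 0 members and 2 of all tested. The median log2 fold change of UUO over AC was 0.09 for members and 0.06 for all tested. The libraries did not overlap for 37 members higher and 25 lower in UUO, with 12.2% and 11.6% of all tested doing so. The share held by the 200 was 1.67 percentage points higher in UUO, all 3 libraries above both of AC, but an exact permutation test, two-sided, gave p = 0.2, the smallest that 3 against 2 libraries allow.

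The members nearest to a difference between the injuries were the leading Arhgap32 loop (0.93 ± 0.24, adjusted p = 0.469) and Cryl1 (0.91 ± 0.25, adjusted p = 0.582), both higher in UUO than in AC in all libraries. A second Arhgap32 loop (mmu_circ_0001763) had 54, 43 and 45 counts in UUO and 9 and 20 in AC (1.50 ± 0.43, adjusted p = 0.582). Cpeb3 was at 2.14 ± 0.71 (adjusted p = 0.816), and Tcf25 (-1.08 ± 0.36) and Trip6 (-0.71 ± 0.26) were lower in UUO (adjusted p = 0.816 for both). So a call in 1 injury and not in the other, as for Arhgap32 or Nfix, was not shown to be a difference between them. The errors leave room for differences of these sizes.

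Member loops of 1 host were set side by side in the 21 hosts with 2 or more members. In UUO against control the members of 15 of the 21 hosts shared a sign, with a median gap of 0.43 between the highest and lowest log2 fold change. In AC against control it was 14 of 21, with a median gap of 0.41. Most members were negative in each comparison, and nothing is read from these counts. Arhgap10, Arhgap32, Bckdhb and Oxct1 had all their members below control in both. In AC, 7 hosts, among them Rere, Tbc1d14, Glis3, Tns3 and Wwc2, had members of opposite sign.

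**Figure D5:**
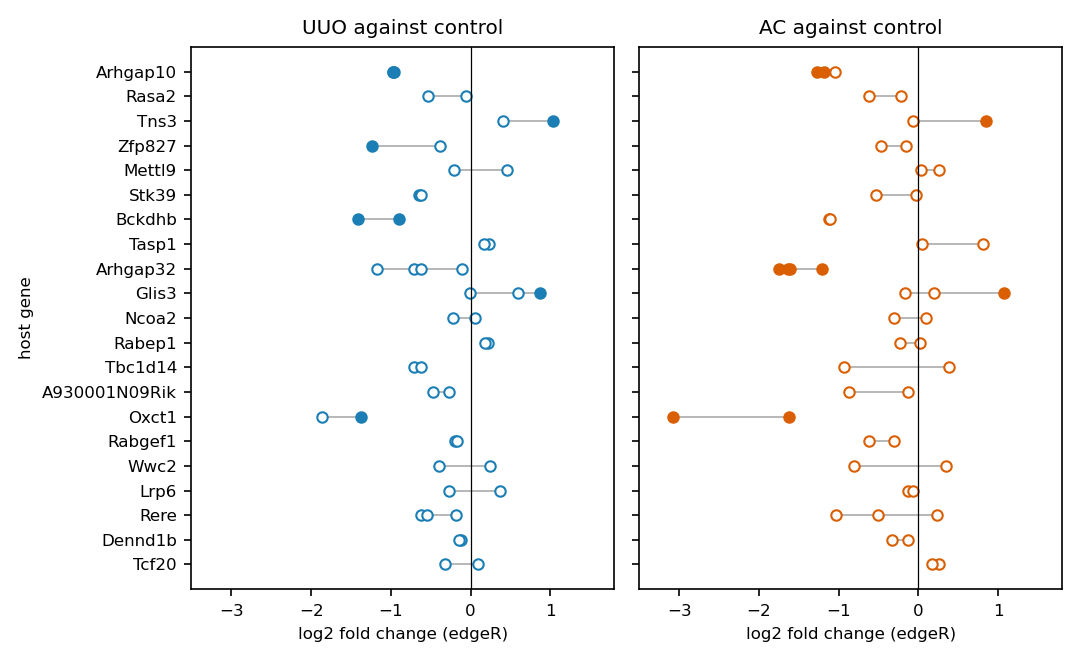
Log2 fold change from edgeR (x axis) of each member from the 21 hosts with 2 or more members (y axis), UUO left and AC right; each circle is 1 circRNA, filled where the adjusted p was under 0.05, and a line spans the members of a host. The 3 circles of Arhgap10 coincide at -0.97 in UUO, and the 4 of Arhgap32 are all filled in AC.

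The split between loops of 1 host is free of library size. The leading Glis3 loop made up 40.7% to 53.7% of the host's members in control, 28.6% and 33.4% in AC and 28.2% to 36.4% in UUO. That of Tns3 made up 64.2% to 69.2% in control, 49.7% and 51.9% in AC and 50.8% to 57.7% in UUO. Wwc2, a regulator of Hippo signalling, went the other way, from 56.6% to 62.7% in control up to 73.2% and 81.3% in AC and 66.2% to 75.6% in UUO. In all 3 hosts no injured library overlapped a control.

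Over the 21 hosts, the leading loop's part was above control without overlap in 6 hosts in UUO and 6 in AC, and below it in 3 and 4. Over all 260 hosts with 2 or more tested loops and counts in every library, 4.23% were above and 7.69% below in UUO, and 8.46% and 13.1% in AC. In those 260 hosts the part was taken of all tested loops of a host. In the 21 it was taken of the members alone, so the shares are not directly comparable and nothing is read from the counts. The comparisons with control share their controls, and the leading loop was chosen by its control level. Between the injuries, which the choice did not use, the leading loop took more in UUO than in AC without overlap in 7 hosts and less in 2, where 9.62% and 10.0% of the 260 hosts did so. Mettl9, a histidine methyltransferase, was 1 of the 7, at 83.7% to 84.4% in UUO against 77.0% and 82.2% in AC. Tbc1d14, a regulator of autophagy, was another, at 54.9% to 71.0% against 41.1% and 43.7%. An exact permutation test of 3 against 2 libraries cannot give less than p = 0.2 for a single host.

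Many members kept a place among the 200 highest after injury. Of the 200, 152 were also among the 200 highest of AC and 156 of those of UUO. Of the 20 highest, 14 stayed among the 20 highest of AC and 14 of UUO, and of the 10 highest 5 and 5. Between single libraries, the 200 highest of 2 controls shared 156 to 170 circRNAs, those of 1 control and 1 AC library 139 to 149, and those of 1 control and 1 UUO library 143 to 155. An AC and a UUO library shared 152 to 162, the 3 pairs of UUO libraries 165 to 170, and the AC pair 160.

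Outside the 200 highest of both injuries, the members with the largest drop in mean share, averaged over AC and UUO, were Cpeb3, Oxct1 (mmu_circ_0000571, rank 55 to 254 in AC and 206 in UUO), Bnc2 (68 to 216 and 217), Acaca (80 to 266 and 277) and Klhl3 (135 to 935 and 798). Acaca had overlapping groups and did not pass (-1.45 ± 0.49 in UUO, adjusted p = 0.124), its control mean resting on control 1. Loops ranked lower in control took their places. The circRNA of Dcdc2a (mmu_circ_0004549), a doublecortin protein of the primary cilium, rose from 5, 4 and 4 counts in control to 97 and 85 in AC and 125, 151 and 170 in UUO, or from rank 1914 to 67 and 41. Loops of Psd3, an exchange factor for Arf GTPases, entered from ranks 294 and 271 to 73 and 71 in AC and 43 and 90 in UUO. The circRNAs of Ptpn14, a tyrosine phosphatase (435 to 80 and 125), and Fam82a1 (223 to 120 and 62) entered as well. A choice by control level leaves such loops out.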

How the data were processed

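The authors deposited whole-number counts of 6315 circRNAs in 8 kidney libraries, without normalization as the values show, and a second signal table in which the authors' values were each count divided by 1 constant per library, whole within 0.01 for 100% of values when multiplied back. The sources used here do not say what that constant stands for, how circular junctions were called or from how many reads. The tools HISAT2 and StringTie and the build mm9 were named, without a role, per the submitters' processing notes. No coordinates or exons are printed, and how reads shared by loops of 1 host were counted is not known. The 10 gene symbols that had become numbers were restored from their source transcripts; none is a member.

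Shares are counts over the library total. Counts were tested as deposited with edgeR 4.0.16 (quasi-likelihood, TMM factors, default filter, 1471 circRNAs kept) in R 4.3.3, with 8 libraries in 1 fit of 3 groups and Benjamini-Hochberg adjustment at 0.05. SE was taken as |log2 fold change| divided by the root of the F statistic. The script was tested on simulated counts. Alternatives were DESeq2 1.42.0, other library sizes and filters, 2-group fits, a replicate block, other choices of members, and each library left out. No 2 libraries agreed within counting noise (chi-square per degree of freedom 3.00 to 4.72 between replicates). Counting error is the only error a single count's depth covers.

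The members, the lists of hosts and markers, and the naming rule were chosen with earlier results of these data known. The rule named the 20 highest members, hosts with 3 or more, the 8 largest increases and decreases per comparison past the threshold, ranks 198 to 203, the 3 highest per list (1 of them is not reported here), and the 5 largest moves out of and into the 200 highest in both injuries. Members named for their control spread, as the nearest to a difference between injuries, as further members past the threshold or lacking counts in a library, or as examples of a split within a host were chosen after their values were seen.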

Additional observations from a re-analysis of the deposited data

How the results depend on the processing

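Across the alternatives, 0 of 48 named calls changed direction. DESeq2 and library totals without TMM factors each kept 47 of 48, and the authors' constant kept 29. Of all tested circRNAs, 4.35% were called in UUO and 3.33% in AC against control in the main fit. The members' shares that follow stand beside these. Nothing is read from them, since the control values chose the members. In UUO against control, 13% of members were called; the 100 highest had 20%, and leaving out 1 library gave 2% to 14%. In AC against control, 12% were called, 3% with a fit on the 2 compared groups alone, and 1.5% to 11% with 1 library left out. Replicate numbers did not pair the libraries (r of same-numbered deviations from -0.21 to 0.12); with a replicate block 3% were called in UUO and 1.5% in AC. In UUO against AC 0% were called in every alternative run.

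The median log2 fold change in UUO (-0.24) was -0.25 with DESeq2, -0.49 with the authors' constant, -0.29 with TMM factors without the members, -0.26 without a filter, -0.20 with the replicate block, -0.21 with 2 groups alone, -0.22 for the 100 highest and for the 200 highest by median, -0.039 for the 200 highest over 3 groups, 0.072 for those of AC and 0.10 for those of UUO, and -0.28 to -0.20 with 1 library left out. In AC (-0.22) it was -0.21 with DESeq2, -0.15 with library totals, -0.55 with the constant, -0.27 with TMM factors without the members and without a filter, -0.19 with 2 groups alone, -0.27 for the 100 highest, -0.26 for the 400 highest, -0.19 by median, -0.074 over 3 groups, 0.12 for those of AC, 0.0029 for those of UUO, -0.19 as a ratio of mean shares, and -0.32 to -0.18 with 1 library left out. In UUO against AC (0.09) it was 0.063 with DESeq2, 0.035 with library totals, 0.15 with the constant, 0.11 without a filter, 0.11 with the replicate block, 0.060 with 2 groups alone, 0.11 for the 100 highest, -0.010 for those of AC, 0.16 for those of UUO, 0.059 as a ratio of mean shares, and 0.068 to 0.15 with 1 library left out. The 100 highest held 34.0%, 29.7% and 31.4% of counts in control, AC and UUO, and the 400 highest 60.4%, 54.4% and 56.1%; with 1 control left out of the choice, AC held 40.8% to 41.1%. The constant entered as a library size, and what it stands for is not stated. Why the medians shifted with it was not tested, nor were other causes. With 2 AC libraries and about 41 to 59 counts for the last member, small changes of low members were not detectable at this depth.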
